A study of Oryza sativa with 2 samples.

Results

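The 9 genes described here make gibberellin (GA) in rice or carry its signal. *CPS1* (LOC_Os02g17780), *KS1* (LOC_Os04g52230), *KO2* (LOC_Os06g37364) and *KAO* (LOC_Os06g02019) encode the early enzymes of GA synthesis. *GA20ox1* (LOC_Os03g63970), *GA20ox2* (LOC_Os01g66100, the semidwarf gene *SD1*) and *GA3ox2* (LOC_Os01g08220) encode the late ones. *GID1* (LOC_Os05g33730) encodes the GA receptor and *SLR1* (LOC_Os03g49990) the DELLA repressor of GA responses. They were chosen by locus ID and role, by a rule that uses no measured value, though with earlier results of these data known. All 9 were found, each in an entry of its own, among the 42152 gene entries of the expression table. The IDs place them on chromosomes 2 (*CPS1*), 4 (*KS1*), 6 (*KO2*, *KAO*), 3 (*GA20ox1*, *SLR1*), 1 (*GA20ox2*, *GA3ox2*) and 5 (*GID1*). RefSeq lists 7 of the 9 names, all but *GA20ox1* and *GA3ox2*, and each of those 7 lies on the chromosome that its ID gives.

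Transcripts were measured by RNA sequencing of leaves in 1 library of the *yl-1* mutant and 1 library of the wild-type *indica* rice cv. Zhongjiazao 17. The mutant came from a library of that cultivar mutagenized with EMS, a chemical that makes single-base changes across the genome, so other loci than *YL-1* can differ as well. *YL-1* encodes a subunit of the cyclase that forms the fifth ring of chlorophyll. Both groups were seedlings on half-strength MS medium in a chamber at 26°C under 300 μmol m-2 s-1 of light, and the labels name no other treatment. Neither the number of plants per library nor the allele of *SD1* that this cultivar carries is given in the sources used here.

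Gibberellins are diterpene hormones that drive stem and leaf elongation. Their synthesis starts in plastids, where CPS and KS turn geranylgeranyl diphosphate into ent-kaurene. KO and KAO oxidize it to the first gibberellin, and the GA 20-oxidases and GA 3-oxidases then make the active forms, which GA 2-oxidases inactivate. When the receptor GID1 binds active GA it attaches to the DELLA protein SLR1, which is then marked by the F-box protein GID2 and degraded, and growth genes are released. In many plants the transcripts of GA 20-oxidases and GA 3-oxidases fall and those of GA 2-oxidases rise when active GA is plentiful.

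The expression table held FPKM, which are fragment numbers per length of transcript and per total of mapped fragments, so levels can be compared between genes. Above 0 were 19955 entries in the *yl-1*-labelled library, with an FPKM sum of 823855, and 20902 in the wild-type-labelled library, with a sum of 738866. Fragment totals are not given. Among 796 entries above 0 in both libraries with a mean FPKM under 0.1, the ratio of the *yl-1*-labelled library to the wild-type-labelled library fell most often, in 39 entries, between 1.11 and 1.15. The genotype names of the columns are in doubt. Where the study itself prints values of single genes, none equals the deposited column of its own genotype name and most equal the other column, so the libraries are called by the names of the deposited columns, and all directions turn around if those names are exchanged. *YL-1* (LOC_Os01g17170) itself stood at 1124 FPKM in the *yl-1*-labelled library and 671 FPKM in the wild-type-labelled library. The paper describes its transcript as strongly reduced in the mutant, which is the direction that exchanged names would give. Its mutation is a single-base change, so this level alone does not settle which name is right, and that was not tested. There are no replicates. No p-value or SD between plants can be given, and every difference describes these 2 libraries only.

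The receptor and the repressor stood lower in the *yl-1*-labelled library, while the synthesis genes were weakly expressed and went both ways. *GID1* was at 32.0 FPKM in the *yl-1*-labelled library and 71.8 FPKM in the wild-type-labelled library, the only one of the 9 genes past 2-fold. *SLR1* was at 102 FPKM in the *yl-1*-labelled library and 158 FPKM in the wild-type-labelled library. *GA3ox2*, the last enzyme before active GA, was higher in the *yl-1*-labelled library, at 2.57 FPKM, against 1.06 FPKM in the wild-type-labelled library. *CPS1*, the first enzyme, was listed at 0 in both libraries.

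**Figure D1:**
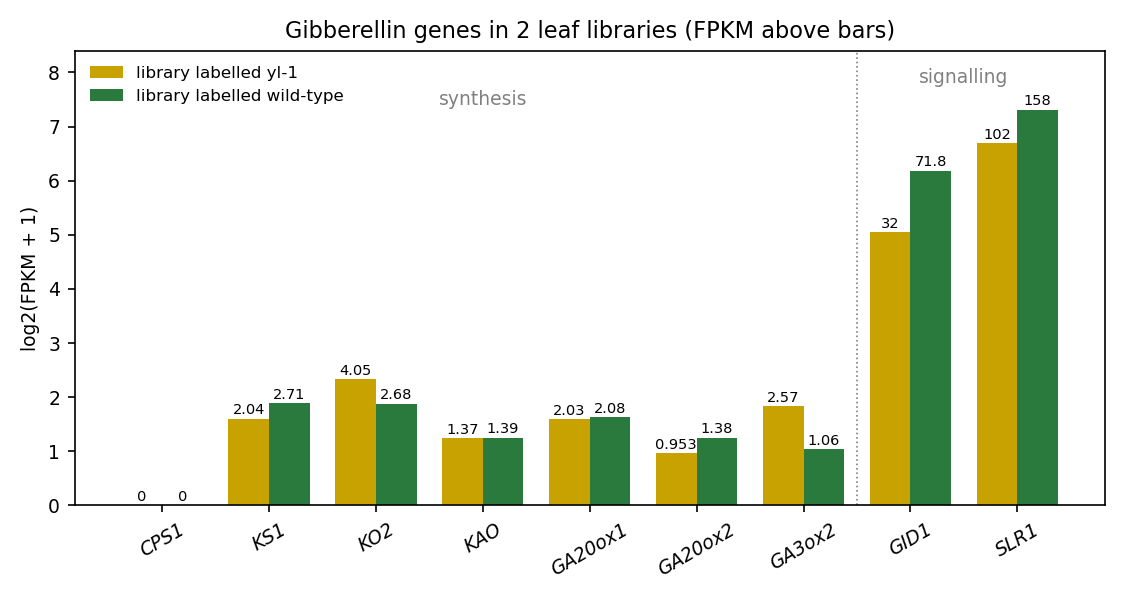
Bars show log2(FPKM + 1) of the 9 gibberellin genes in the *yl-1*-labelled library (yellow, left) and the wild-type-labelled library (green, right), with the FPKM above each bar and 1 library per genotype. *GID1* (32.0 FPKM in the *yl-1*-labelled library, 71.8 FPKM in the wild-type-labelled library) and *SLR1* (102 FPKM in the *yl-1*-labelled library, 158 FPKM in the wild-type-labelled library) stand far above the synthesis genes, which do not pass 4.05 FPKM in either library.

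Differences were taken as the log2 ratio of (FPKM + 1), *yl-1*-labelled over wild-type-labelled library, for entries that averaged at least 1 FPKM. The added 1 damps the change of weakly expressed genes. Of the 9 genes, 8 passed this filter and *CPS1* did not. *GA20ox2* passed it only through its level in the wild-type-labelled library. Of the 8, 2 were higher and 6 lower in the *yl-1*-labelled library, with a median log2 ratio of -0.16, against a median of 0.014 over all 14559 entries compared, of which 48.3% were lower. At least 2-fold higher were 0 of the 8 genes, against 2.5% of all entries compared, and at least 2-fold lower was 1 of 8, against 3.65%. At a threshold of 1.5-fold, 1 gene was higher (*GA3ox2*), against 7.71% of all entries, and 2 were lower (*GID1* and *SLR1*), against 9.57%. With 8 genes such counts are too small to set the list apart from the table.

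Signalling genes were the abundant ones. In the *yl-1*-labelled library, 95.4% of entries above 0 had a lower FPKM than *SLR1* and 87.5% a lower FPKM than *GID1*. In the wild-type-labelled library the shares were 97.1% and 94.0%. *SLR1*, the single DELLA gene through which rice restrains its GA response, was the most abundant of the 9 genes in both libraries, followed by *GID1*.

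*GID1* had a log2 ratio of -1.14, a level 2.20-fold lower on the FPKM + 1 scale in the *yl-1*-labelled library. Among the 5100 entries with a mean of 10 to 100 FPKM, 102 (2%) were lower by as much or more, and the 5th and 95th percentiles of their log2 ratios were -0.80 and 0.63. *GID1* thus lay outside the range that most genes of its level covered between these libraries. That range is a spread over genes and not a replicate error. In leaf tissue, fewer cells that express a gene and less of its RNA per cell cannot be told apart.

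*SLR1* had a log2 ratio of -0.62, or 1.53-fold lower in the *yl-1*-labelled library. This difference was within the range of its level. Among 852 entries with a mean of 100 to 1000 FPKM, 87 (10.2%) were lower by as much, and the 5th and 95th percentiles were -0.88 and 0.72. Summed, the receptor and the repressor held 134 FPKM in the *yl-1*-labelled library and 229 FPKM in the wild-type-labelled library.

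Since *GID1* differed more than *SLR1*, their proportion differed as well. The *yl-1*-labelled library held 3.19 *SLR1* transcripts for each *GID1* transcript, and the wild-type-labelled library 2.19. Such a ratio is taken inside each library and does not depend on how the libraries are scaled to each other.

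**Figure D2:**
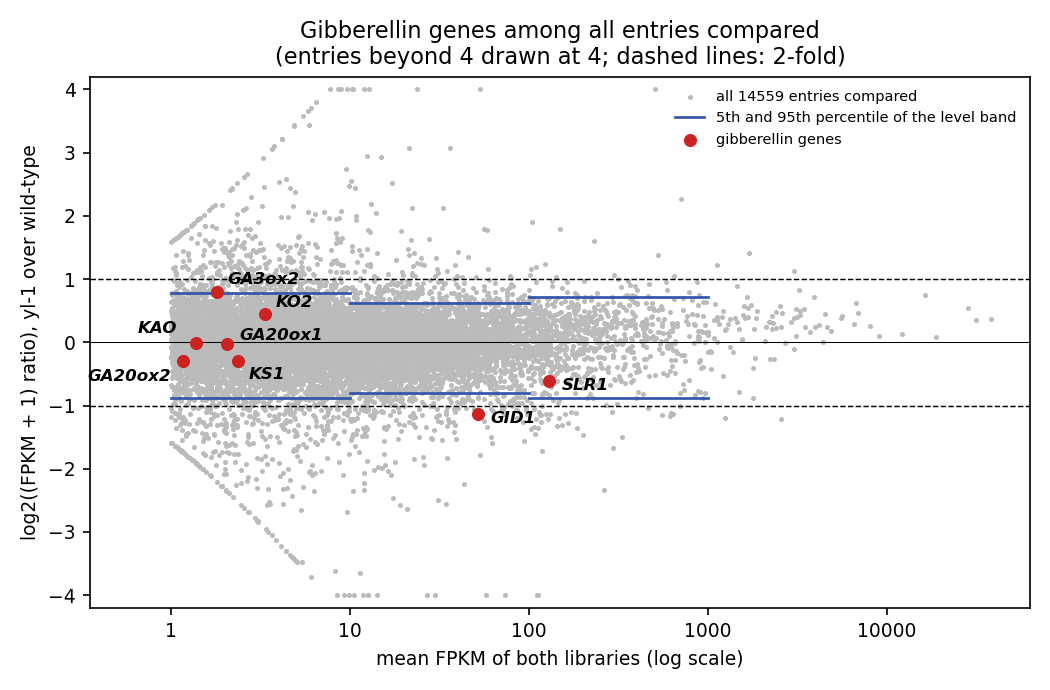
Each grey point is an entry of the table, with its mean FPKM on a log scale (x axis) and its log2((FPKM + 1) ratio), *yl-1*-labelled over wild-type-labelled library (y axis). Red points are the 8 gibberellin genes compared, and blue lines are the 5th and 95th percentiles for means of 1 to 10, 10 to 100 and 100 to 1000 FPKM. *GID1* at -1.14 lies below the line of its level and *GA3ox2* at 0.80 just above its own, while the other 6 lie between the lines.

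The synthesis genes were weakly expressed. The 6 above 0 ranged from 0.953 to 4.05 FPKM in the *yl-1*-labelled library and from 1.06 to 2.71 FPKM in the wild-type-labelled library. Below them in level were 27.1% to 51.5% of the entries above 0 in the *yl-1*-labelled library and 31.6% to 46.3% in the wild-type-labelled library. The 7 genes together held 13.0 FPKM in the *yl-1*-labelled library and 11.3 FPKM in the wild-type-labelled library. Without *GA3ox2* they held 10.4 FPKM in the *yl-1*-labelled and 10.2 FPKM in the wild-type-labelled library. Within that sum *KO2* was higher and *KS1* and *GA20ox2* were lower in the *yl-1*-labelled library, so near-equal sums do not mean equal genes.

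Of the early enzymes, *CPS1*, which makes ent-copalyl diphosphate and commits the precursor to GA, was listed at 0 in both libraries. An exact 0 can be a failed estimate, so it is given as listed and not as absence. *KS1*, which converts that product to ent-kaurene, was at 2.04 FPKM in the *yl-1*-labelled library and 2.71 FPKM in the wild-type-labelled library, a log2 ratio of -0.29. A difference of that size or larger, in either direction, was common at this level, since 57.5% of the 8514 entries with a mean of 1 to 10 FPKM differed by less.

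*KO2*, the ent-kaurene oxidase whose loss makes the rice dwarf *d35*, was at 4.05 FPKM in the *yl-1*-labelled library and 2.68 FPKM in the wild-type-labelled library, a log2 ratio of 0.46. It was the highest of the synthesis genes in the *yl-1*-labelled library, while in the other library *KO2* and *KS1* were almost level. The *yl-1*-labelled library held 1.99 *KO2* transcripts per *KS1* transcript and the wild-type-labelled library 0.987. Related oxidases lie next to *KO2* on chromosome 6, and how reads shared among them were counted is not given, so its value is uncertain. *KAO*, which completes the first gibberellin, was at 1.37 FPKM in the *yl-1*-labelled library and 1.39 FPKM in the wild-type-labelled library (log2 ratio -0.013), nearly the same.

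Of the late enzymes, the GA 20-oxidases were nearly level or lower. *GA20ox1* was at 2.03 FPKM in the *yl-1*-labelled library and 2.08 FPKM in the wild-type-labelled library, a log2 ratio of -0.027. *GA20ox2*, the gene of the semidwarf rice varieties, was at 0.953 FPKM in the *yl-1*-labelled library and 1.38 FPKM in the wild-type-labelled library, a log2 ratio of -0.29. It was the lowest of the 8 genes in the *yl-1*-labelled library and close to the filter, with a mean of 1.17 FPKM. It passed the filter only through its level in the wild-type-labelled library, so its direction carries little weight.

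*GA3ox2*, defective in the rice dwarf *d18*, had the largest difference of the synthesis genes. Its log2 ratio was 0.80, and 416 of the 8514 entries of its level (4.89%) were higher by as much or more, where the 5th and 95th percentiles were -0.88 and 0.78. The FPKM themselves differed 2.43-fold. With a pseudocount of 0.1 or 0.01 in place of 1 its log2 ratio was 1.21 or 1.27 and passed 2-fold, so the choice of pseudocount decides whether it passes. Against the GA 20-oxidases the order changed between the libraries, though at levels of a few FPKM or less, where the precision is unknown. The *yl-1*-labelled library held 2.70 *GA3ox2* transcripts per *GA20ox2* transcript and 1.27 per *GA20ox1* transcript, and the wild-type-labelled library 0.763 and 0.507.

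Rescaling both libraries to the same FPKM sum moved the median of all entries compared to -0.12, and the 8 genes moved down with it. Over this and the other scalings *GID1* ranged from -1.29 to -1.11, *SLR1* from -0.77 to -0.59, *GA3ox2* from 0.68 to 0.82 and *KO2* from 0.33 to 0.48. *KAO* ranged from -0.10 to 0.0058 and has no stable direction. *GA20ox1* stayed below 0 but reached -0.0056, close to no difference.

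**Figure D3:**
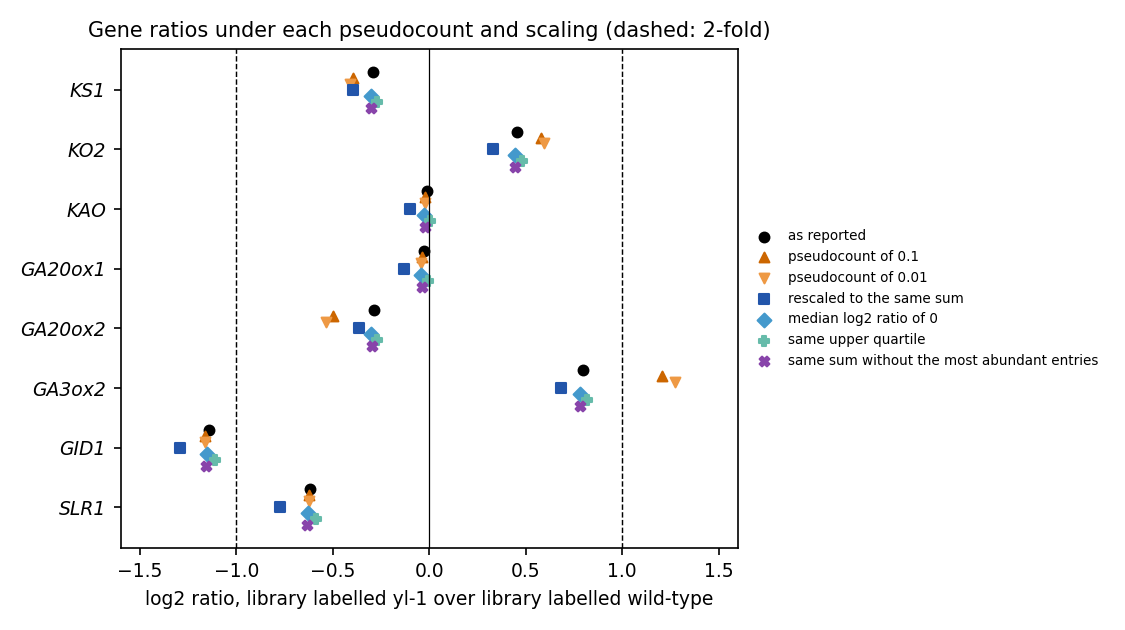
Points give the log2 ratio (x axis), *yl-1*-labelled over wild-type-labelled library, of each of the 8 genes compared (rows) under the reported setting, other pseudocounts and other scalings. *GID1* lies beyond the 2-fold line under every setting drawn, *GA3ox2* crosses it with pseudocounts of 0.1 (1.21) and 0.01 (1.27), and *KAO* lies close to 0.

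The rest of the GA pathway was followed through 4 lists with 33 locus IDs, of which 32 were in the table. Their IDs come from general knowledge of rice locus numbers, and the sources used here do not pair them with names. Only 12 entries passed the filter, of which 7 were higher and 5 lower in the *yl-1*-labelled library, where 48.3% of all entries compared were lower. An α-amylase locus gave more than 1 of these entries, both higher. None was at least 2-fold higher, against 2.5% of all entries, and 1 was at least 2-fold lower, against 3.65%.

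That 1 entry, LOC_Os05g48700, is in the list of GA deactivation, which holds loci known as GA 2-oxidases and other inactivating enzymes. It was at 0.737 FPKM in the *yl-1*-labelled library and 7.69 FPKM in the wild-type-labelled library, a log2 ratio of -2.32. It passed the filter only through its level in the wild-type-labelled library. The list held 13 IDs, of which 12 were found, 2 were listed at 0 in both libraries and 7 were above 0 but under the filter. All 3 that could be compared were lower in the *yl-1*-labelled library, where 48.3% of all entries compared were lower. So few entries do not set the list apart, and those above 0 but under the filter went both ways. The most abundant, LOC_Os05g11810, was at 24.2 FPKM in the *yl-1*-labelled library and 31.5 FPKM in the wild-type-labelled library. Its log2 ratio was -0.37 and so under 2-fold. Summed over the 12 entries the list held 29.0 FPKM in the *yl-1*-labelled library and 45.3 FPKM in the wild-type-labelled library. Most of these sums and of their difference came from LOC_Os05g11810 and LOC_Os05g48700, so they do not describe the list as a whole.

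The other signalling genes were level between the libraries, unlike *GID1* and *SLR1* in size, though no test of that contrast is possible here. Of 8 IDs, which include the F-box gene *GID2* and other regulators of DELLA proteins, 5 were compared, with log2 ratios from -0.021 to 0.11. Of the other GA 20-oxidases and GA 3-oxidases, 2 of 3 were listed at 0 in both libraries, and the remaining one was at 1.90 FPKM in the *yl-1*-labelled library and 1.49 FPKM in the wild-type-labelled library.

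Genes that GA is known to induce in seeds and growing organs, the α-amylases and the GASA family, were near the floor of the table. Of their 10 entries 6 were listed at 0 in both libraries, and none passed 1.98 FPKM in the *yl-1*-labelled library or 2.17 FPKM in the wild-type-labelled library. The 3 compared had log2 ratios from -0.087 to 0.64. The entries at 0.64 and 0.12 belong to the same α-amylase locus. The one at 0.64 was at 1.53 FPKM in the *yl-1*-labelled library and 0.620 FPKM in the wild-type-labelled library. It passed the filter only through its level in the *yl-1*-labelled library. A response of these targets was therefore hardly measurable in either library.

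**Figure D4:**
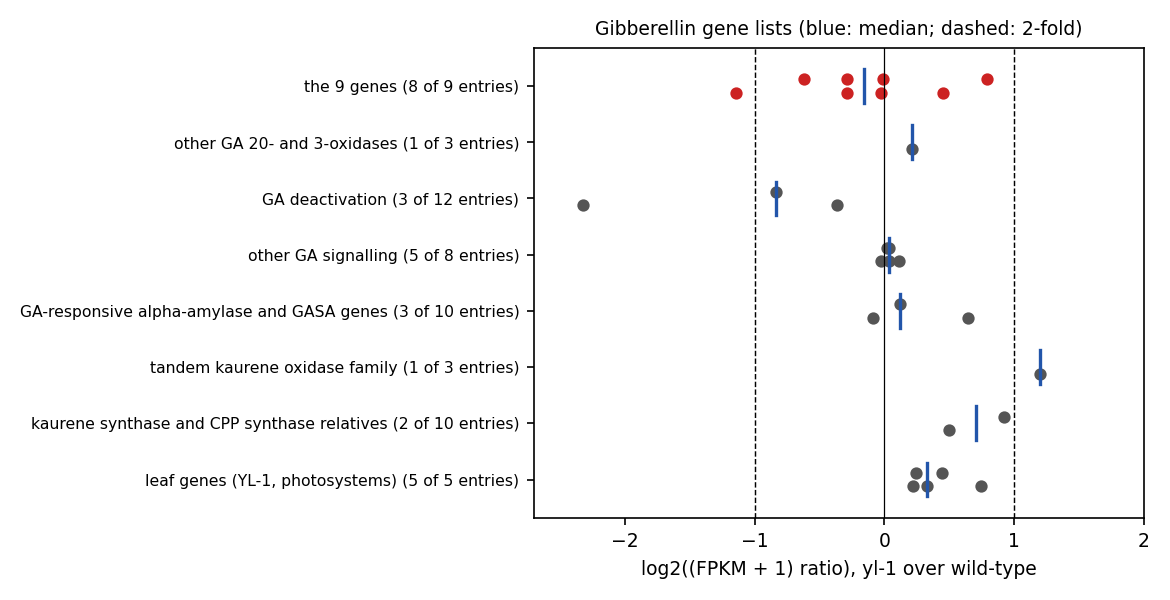
Points give the log2((FPKM + 1) ratio), *yl-1*-labelled over wild-type-labelled library (x axis), of every compared entry of the 9 genes (red) and of 7 other lists (grey), with blue bars for medians and the number compared beside each name. The 3 entries of GA deactivation lie between -2.32 and -0.37, the 5 of other GA signalling between -0.021 and 0.11, and the 5 leaf genes between 0.22 and 0.74.

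Leaf genes and the cells that a leaf sample could hold were read in the same libraries. *YL-1* and 4 photosystem genes were abundant, at 485 to 5206 FPKM in the *yl-1*-labelled library and 387 to 3824 FPKM in the wild-type-labelled library, and all 5 were higher in the *yl-1*-labelled library. These 5 were taken from a list that the study selected on the same libraries, so their direction is no independent evidence, and it turns around with the column names. That list also holds the photosystem gene *PsbR*, left out of the 5, for which the study prints the opposite direction to theirs. Of 4 genes of dividing cells and meristems, where rice GA synthesis is strong, 2 were listed at 0 in both libraries. The 4 summed to 7.25 FPKM in the *yl-1*-labelled library and 6.82 FPKM in the wild-type-labelled library. Nearly all of that was 1 gene, at 7.19 FPKM in the *yl-1*-labelled library and 6.71 FPKM in the wild-type-labelled library. The other gene above 0 went the other way, at 0.0615 FPKM in the *yl-1*-labelled library and 0.117 FPKM in the wild-type-labelled library. The 3 seed storage and root genes summed to 0.0833 FPKM in the *yl-1*-labelled library and 0.0744 FPKM in the wild-type-labelled library, with 2 of them listed at 0 in both. Their part in the values of the GA genes was not tested.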

How the data were processed

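Total RNA of leaves from 1 *yl-1* and 1 wild-type plant sample was enriched for poly(A) mRNA and sequenced as paired-end fragments averaging 300 bp. The authors deposited FPKM for both libraries, and the submitters' processing notes name TopHat, Cufflinks and Cuffdiff. Their versions, the genome build, the annotation and any filter are not stated in the sources used. Columns were assigned to genotypes by name, and 0 columns were left unused.

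The log2((FPKM + 1) ratio) was computed from these values where the entry averaged at least 1 FPKM, and entries past 2-fold and 1.5-fold were counted. No test was run, because there is 1 library per genotype. Without fragment totals no counting interval could be had. Names were matched to RefSeq (assembly ASM3414082v1), whose table held 0 of the 41981 locus IDs, so no coordinates or sequences are shown. The 9 genes and all lists were chosen with earlier results of these data known. All 9 genes are named, and from other lists genes past 2-fold or most abundant among those compared. The LOC_Os01g08300 entry was named after its values were seen. The counting of entries past a fold threshold was tested on simulated data without noise, with 4-fold changes planted in well-expressed entries. That checks the counting only and says nothing about the precision of genes near 1 FPKM. Other pseudocounts, scalings, filters and fold thresholds were tried as alternatives. Python 3.11.15, numpy 2.4.6, pandas 2.3.3 and matplotlib 3.10.9 were used.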

Additional observations from a re-analysis of the deposited data

How the results depend on the processing

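No paired analysis was possible because each genotype has 1 library. A filter leaves a gene's own ratio unchanged, so the values under other filters could not differ from the reported ones. Of 58 values of single genes under other pseudocounts, filters and scalings, 55 kept their direction and their side of 2-fold. The others were *GA3ox2* with a pseudocount of 0.1 or 0.01, which raises the count of genes at least 2-fold higher to 1, and *KAO*, at 0.0058 with the same upper quartile. At a 1.5-fold threshold 1 gene was higher and 2 lower, and at 4-fold 0 were lower. With a mean FPKM of at least 5 only *GID1* and *SLR1* remained, with a median of -0.88. Against 364 entries higher and 531 lower, a pseudocount of 0.1 gave 586 higher and 782 lower, and 0.01 gave 611 and 818. Entries averaging 5 FPKM or more gave 154 and 268, 1.5-fold gave 1122 and 1393, and 4-fold gave 63 and 99. Rescaling to the same sum gave 286 and 681. With the column names exchanged (chosen after seeing the data) *GID1* had a log2 ratio of 1.14, 1 gene was at least 2-fold higher and 0 lower, and the median was 0.16. The cause was not tested. Without fragment totals, the precision of genes near 1 FPKM is unknown.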

Other observations

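Relatives of the early GA enzymes make rice defence compounds, the labdane-type phytoalexins, from the same precursor. Of 10 loci related to CPS and KS, 5 were listed at 0 in both libraries and 3 more did not reach a mean of 1 FPKM. The 2 compared had log2 ratios of 0.50 and 0.92, both higher in the *yl-1*-labelled library, where 48.3% of all entries compared were lower. The list summed to 16.4 FPKM in the *yl-1*-labelled library and 9.83 FPKM in the wild-type-labelled library. Nearly all of both sums came from the 2 compared, so they do not describe the list as a whole. Of 3 loci listed as relatives of *KO2* and next to it on chromosome 6, 2 were listed at 0 in both libraries. The third, LOC_Os06g37300, was at 7.90 FPKM in the *yl-1*-labelled library and 2.88 FPKM in the wild-type-labelled library, a log2 ratio of 1.20. *KO2* moved the same way to a smaller extent, and reads that fit both loci cannot be told apart here.

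The 5 nearest compared loci on each side of a gene, by locus number, show whether its surroundings differed too. Over all entries compared, 2.5% were at least 2-fold higher and 3.65% at least 2-fold lower. With 10 loci around a gene, counts past 2-fold are too small to set its surroundings apart. Around *GID1* the 10 flanking loci had log2 ratios from -0.47 to 0.35, none past 2-fold, so the difference of *GID1* was not shared by them. Around *SLR1* the flanking loci had a median of -0.17, with 2 of 10 at least 2-fold lower. Of those 2, 1 was at 0.217 FPKM in the *yl-1*-labelled library and 2.03 FPKM in the wild-type-labelled library. It passed the filter only through its level in the wild-type-labelled library. Around *KO2* 2 of 10 were at least 2-fold higher, among them LOC_Os06g37300, and 1 was at least 2-fold lower. The other higher locus was at 2.83 FPKM in the *yl-1*-labelled library and 0.776 FPKM in the wild-type-labelled library. It passed the filter only through its level in the *yl-1*-labelled library. Around *GA20ox2* 1 of 10 was at least 2-fold higher, and around *CPS1*, *KS1*, *KAO* and *GA20ox1* none passed 2-fold. Around *GA3ox2* the median was 0.016. There 1 of 10 was at least 2-fold lower (log2 ratio -1.73, listed at 0 in the *yl-1*-labelled library), and 1 flanking locus, LOC_Os01g08300, was at 1014 FPKM in the *yl-1*-labelled library and listed at 0 in the wild-type-labelled library. Since an exact 0 can be a failed estimate, both are given as listed and not as absence.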
